A study of Mus musculus with 6 samples.

Results

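The genes described are 32 that encode the enzymes of mitochondrial fatty acid β-oxidation (17) and the proteins of the peroxisome (15), given as a list of symbols. An entry of the expression table was taken where one of its comma-separated gene names was a listed symbol, which gave 31 of the 26384 entries, and 29 of these had a mean level high enough to be tested. Pex2 had no entry under that symbol and is given apart under its older name. RNA-Seq was performed on GFP+ MLL-AF9 cells, mouse leukemia cells that express the MLL-AF9 fusion oncogene together with GFP, sorted from the bone marrow of C57BL/6J recipients. A group of 3 mice received the IMPDH inhibitor FF-10501-01 orally at 160 mg/kg on 2 consecutive days, and a group of 3 mice received vehicle. IMPDH controls the pace at which cells make guanine nucleotides. By the labels the cells were collected 48 h after the first dose, although the sequencing methods of the study give a shorter interval. Both groups carried the same leukemia, made by transducing c-Kit+ bone marrow cells of wild-type C57BL/6 mice and passaged through mice before use, and no group of normal cells was sequenced. The study used young adult mice, and whether the leukemia was of 1 clone is not stated.

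Mitochondrial β-oxidation shortens activated fatty acids inside the mitochondrion. Long chains enter through the carnitine shuttle, and each cycle then takes an acyl-CoA through a dehydrogenase, a hydratase, a second dehydrogenase and a thiolase, with electrons passed to the respiratory chain by the electron transfer flavoprotein. Peroxisomes begin the breakdown of very long and branched chains with their own set of enzymes. Their matrix enzymes are made in the cytosol and imported by receptors and a docking complex, which the Pex genes encode.

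FF-10501-01 was followed by lower levels of a minority of these genes. Of the 29 tested, 6 were lower, 1 was higher and 22 did not pass (limma on log2 FPKM, Benjamini-Hochberg adjusted p under 0.05 over all 11004 entries tested). The 6 lower genes were Cpt1a and Slc25a20 of the carnitine shuttle, Hadhb and Hadh of the β-oxidation cycle, and Pex5 and Pex7, the receptors of peroxisomal matrix import. The higher gene was Ech1, which acts on unsaturated fatty acids. The changes were modest, with the mean falling by 27.3% at most (Hadh). The share lower was 20.7% of the genes, beside 7.46% of all entries tested, and the share higher was 3.45%, beside 7.43%. Over all entries 818 were higher and 821 lower, a split that became 1008 and 667 after rescaling to TPM, where 1 of these genes was higher and 5 were lower. With no filter on low FPKM none of the 7 passed (limma adjusted p = 0.0610 to 0.110), and without a variance trend Slc25a20, Hadhb, Ech1 and Pex7 did not (limma adjusted p = 0.0581 to 0.0782).

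The median log2 fold change was −0.08 over the 29 genes, beside −0.01 over all entries tested, and 24 of the 29 values were below 0, beside 53.4% of all entries. In 12 of the 29 every FF-10501-01 library was below every vehicle library, beside 21.2% of all entries, and in 1 of the 29 every one was above, beside 17.6%. These shares describe the genes and were not tested as a set. The 7 calls depended on single libraries. None remained without FF-10501-01 replicate 3, when 266 of all entries passed, and none without vehicle replicate 1, when 426 passed. Without FF-10501-01 replicate 1, FF-10501-01 replicate 2 or vehicle replicate 3 there were 3, 2 and 1 lower genes and 0 higher, whereas without vehicle replicate 2 only Pex7 of the 7 was lost (limma adjusted p = 0.0842). The 7 genes kept their direction in every one of those fits, which was fixed in advance because their groups did not overlap. All 7 had an unadjusted p under 0.05 in each of them (limma). They were picked by p in these same libraries, so this is no separate support.

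**Figure D1:**
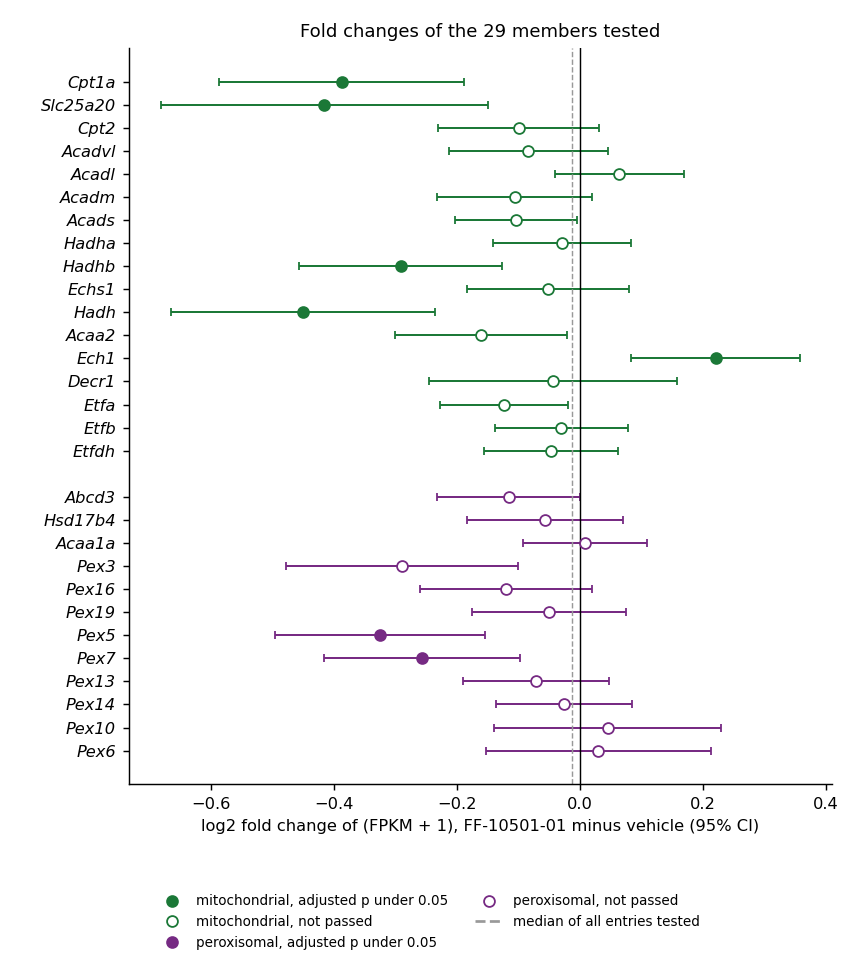
Log2 fold change of FF-10501-01 against vehicle (x axis, on log2(FPKM + 1), with 95% confidence intervals) for the 29 tested genes, mitochondrial and peroxisomal, with those that passed the adjusted p of 0.05 marked. Most points lie left of 0 and within 0.20 of it, Hadh is lowest at −0.45 and Ech1 highest at 0.22.

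The libraries were similar in depth. The groups differed in genes listed as markers of other cell types, of which 12 of 22 tested were higher and 1 was lower. The shares over all entries tested were 7.43% and 7.46%. Relative depth, estimated from entries of 0.3 FPKM or less, lay between 0.986 and 1.25 of vehicle replicate 1, and read totals are not in the table. All 12 markers of the leukemia cells were measured above 1 FPKM, with a summed level of 1672 to 1848 FPKM in FF-10501-01 and 1633 to 1731 FPKM in vehicle. Of these Itgam, Spi1 and Hoxa9 were higher (log2 fold changes 0.33, 0.17 and 0.27, limma adjusted p = 0.0085, 0.0409 and 0.0465) and Kit was lower (−0.27, limma adjusted p = 0.0476), with Hoxa9 in an entry merged with Mir196b. The study, using Cuffdiff, reported no effect on Hoxa9 or Meis1, whereas Hoxa9 here lay just under the limit with another test. Meis1 and Hoxa10 did not pass (−0.07 and 0.12, limma adjusted p = 0.230 and 0.326). Among 9 neutrophil markers tested 6 were higher, with the list summing to 1293 to 2484 FPKM in FF-10501-01, highest in replicate 3, against 1106 to 1430 FPKM in vehicle. The log2 fold changes of Camp, S100a9, Ngp and S100a8 were 2.05, 1.96, 1.79 and 1.61 (limma adjusted p = 0.0144, 0.0091, 0.0146 and 0.0104), whereas Chil3, the most abundant of the list in vehicle, was at −0.58 (limma adjusted p = 0.0857), and Ltf, Ly6g and Retnlg averaged below 1 FPKM over the 6 libraries. Among 5 tissue macrophage markers tested 4 were higher, Vcam1 among them (log2 fold change 0.60, limma adjusted p = 0.0252). This list had sums of 112 to 135 FPKM in FF-10501-01 and 80.2 to 93.6 FPKM in vehicle. The erythroid list summed to 18.9 to 23.3 and 29.4 to 40.4 FPKM in FF-10501-01 and in vehicle, with 4 of its 11 entries at 0 throughout and Tfrc, which dividing cells also express, as most of the sum. The platelet list summed to 15.7 to 24.3 and 9.97 to 10.9 FPKM, the B cell list to 5.81 to 6.80 and 8.25 to 9.36 FPKM, the T and NK cell list to 3.25 to 4.80 and 2.66 to 4.58 FPKM, and the adipocyte and stroma list to 1.27 to 1.51 and 1.04 to 1.38 FPKM, each in FF-10501-01 and in vehicle. Most of the platelet sum was 1 entry, Gp1bb merged with Sept5, and Pf4 and Ppbp were at or near 0 in every library. The part of these differences in the results was not tested. In bulk RNA, fewer cells of a type and less RNA per cell cannot be told apart.

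In the carnitine shuttle, which carries long chains across the mitochondrial membranes, 2 of 3 genes were lower, beside 7.46% of all entries tested. Cpt1a encodes the outer-membrane carnitine palmitoyltransferase, the step at which entry is controlled, and lies at chr19:3322334-3385733 (GRCm38). It had 45.6, 52.6 and 52.6 FPKM in FF-10501-01 libraries, against 72.7, 58.3 and 67.6 FPKM in vehicle libraries. All 3 FF-10501-01 values were below all vehicle values, with vehicle replicate 2 nearest to them. The means were 50.2 ± 4.03 and 66.2 ± 7.31 FPKM (SD, n = 3 each), and the log2 fold change was −0.39 (SE 0.087, limma adjusted p = 0.0256).

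Slc25a20 encodes the carnitine-acylcarnitine translocase of the inner membrane and lies at chr9:108662088-108684641. It had 17.5, 18.5 and 18.0 FPKM in FF-10501-01, against 30.1, 20.7 and 23.1 FPKM in vehicle. The treated values were close together, while vehicle replicate 1 stood well above the other vehicle libraries. The log2 fold change was −0.42 (SE 0.12, limma adjusted p = 0.0472), and the adjusted p was 0.0512 to 0.0540 under quantile, median-of-ratios or TPM scaling. Cpt2, the inner-membrane transferase, had a log2 fold change of −0.10 and did not pass (limma adjusted p = 0.262).

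The promoter windows of 5 of the 6 lower genes are printed to show their base composition, each from 250 bases before to 50 after the RefSeq start, with CpG dinucleotides in capitals (GRCm38.p6).
Cpt1a, chr19:3323051-3323350, plus strand: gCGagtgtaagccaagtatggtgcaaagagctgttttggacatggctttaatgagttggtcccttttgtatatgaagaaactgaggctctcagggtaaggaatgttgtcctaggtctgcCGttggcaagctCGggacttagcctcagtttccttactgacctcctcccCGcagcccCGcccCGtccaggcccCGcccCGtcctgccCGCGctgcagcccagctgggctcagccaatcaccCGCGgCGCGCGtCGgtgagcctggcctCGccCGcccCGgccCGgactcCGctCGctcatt
Slc25a20, chr9:108661886-108662185, plus strand: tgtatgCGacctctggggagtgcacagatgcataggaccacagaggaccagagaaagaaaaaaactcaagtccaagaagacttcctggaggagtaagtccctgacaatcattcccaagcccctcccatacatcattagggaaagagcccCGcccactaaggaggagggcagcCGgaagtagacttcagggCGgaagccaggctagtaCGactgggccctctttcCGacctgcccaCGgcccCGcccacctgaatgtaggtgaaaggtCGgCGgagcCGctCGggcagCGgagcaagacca
Hadh, chr3:131272052-131272351, minus strand: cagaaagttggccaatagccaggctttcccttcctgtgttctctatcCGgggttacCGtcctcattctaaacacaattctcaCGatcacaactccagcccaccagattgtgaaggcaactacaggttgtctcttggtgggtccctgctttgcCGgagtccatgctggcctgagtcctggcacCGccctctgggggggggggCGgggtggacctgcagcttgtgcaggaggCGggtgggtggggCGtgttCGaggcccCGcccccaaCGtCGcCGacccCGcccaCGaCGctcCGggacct
Pex5, chr6:124415018-124415317, minus strand: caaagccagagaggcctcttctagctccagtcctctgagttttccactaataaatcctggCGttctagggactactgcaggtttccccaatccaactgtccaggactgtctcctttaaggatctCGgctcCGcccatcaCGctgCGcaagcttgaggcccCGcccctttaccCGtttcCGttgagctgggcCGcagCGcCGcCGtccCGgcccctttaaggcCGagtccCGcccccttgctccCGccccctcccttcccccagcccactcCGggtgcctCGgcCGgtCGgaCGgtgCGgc
Pex7, chr10:19907625-19907924, minus strand: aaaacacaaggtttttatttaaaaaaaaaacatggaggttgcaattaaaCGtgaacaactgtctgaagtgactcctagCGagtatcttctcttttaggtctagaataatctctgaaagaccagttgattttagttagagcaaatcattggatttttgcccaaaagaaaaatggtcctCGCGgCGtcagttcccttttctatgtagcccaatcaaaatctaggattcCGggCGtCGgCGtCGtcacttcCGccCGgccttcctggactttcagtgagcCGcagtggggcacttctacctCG

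These 5 windows held 22, 13, 17, 22 and 14 CpG in the order printed. Pex5 has further RefSeq windows that are not printed. The one shown has its start at 124415067, where GENCODE also begins the gene, and its CpG count holds for that window only. Among the 32 listed genes 27 had a RefSeq window, 31 windows in all, with a median of 17 CpG, and 93.5% of the windows held at least 10. The windows of all genes in the tested entries had a median of 21 CpG, and 79.5% held at least 10. The PPAR element consensus AGGTCANAGGTCA and the ERR element consensus TCAAGGTCA, searched on both strands, were in none of the 27 genes' windows, beside 0.0481% and 0.466% of all 27025 genes with a window. At shares this low none would be likely in any 27 genes, so this does not set these genes apart. The E-box CACGTG was also in none, beside 8.09% of all genes. The hexamer AGGTCA, which both consensus elements contain, was in the windows of Acadm, Acadvl, Cpt1a and Echs1, 4 of 27 genes, beside 18.1% of all genes. Of these only Cpt1a passed the expression test.

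None of the 4 acyl-CoA dehydrogenases, which open each cycle for chains of different length, passed (limma, 1 at an unadjusted p under 0.05, Acads). Acadl, the long-chain enzyme, shares an entry with 1110028C15Rik, and the value cannot be divided between them. That entry had 65.8, 68.7 and 71.4 FPKM in FF-10501-01 and 63.4, 66.6 and 66.8 FPKM in vehicle, and the groups overlapped. Acadvl, Acadm and Acads act on very long, medium and short chains. Their log2 fold changes were −0.08, −0.11 and −0.10 (limma adjusted p = 0.332, 0.218 and 0.134), and the Acads entry is merged with Gm13826.

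Among the 5 genes of the hydratase, dehydrogenase and thiolase steps, Hadh and Hadhb were lower. Hadh, at chr3:131233419-131272101, encodes the dehydrogenase for short and medium hydroxyacyl-CoA. It had 28.5, 31.6 and 24.5 FPKM in FF-10501-01, against 41.4, 35.2 and 39.7 FPKM in vehicle. The groups did not overlap, and FF-10501-01 replicate 3 was lowest. The means were 28.2 ± 3.57 and 38.8 ± 3.18 FPKM (SD, n = 3 each), with a log2 fold change of −0.45 (SE 0.094, 95% interval −0.67 to −0.24, limma adjusted p = 0.0213), the lowest of the 29 genes.

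Hadhb and Hadha encode the β and α subunits of the trifunctional protein, which carries the last 3 steps for long chains. Hadhb, at chr5:30155248-30184593, had 39.0, 34.3 and 31.7 FPKM in FF-10501-01, against 44.3, 41.6 and 42.9 FPKM in vehicle. Every FF-10501-01 value was below every vehicle value, and the log2 fold change was −0.29 (SE 0.072, limma adjusted p = 0.0332). Hadha, at chr5:30118304-30155162, had 49.3, 50.6 and 47.2 FPKM in FF-10501-01 and 48.1, 49.6 and 52.4 FPKM in vehicle. Its groups overlapped, and the log2 fold change was −0.03 (95% interval −0.14 to 0.08, limma adjusted p = 0.709).

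The ratio of Hadhb to Hadha, looked at after their values were seen, was 0.790, 0.678 and 0.673 in FF-10501-01, against 0.921, 0.838 and 0.818 in vehicle. All FF-10501-01 ratios were below all vehicle ratios (exact two-sided permutation p = 0.1, the smallest that 3 against 3 can give, and 0.2 adjusted over 2 ratios). The like ratio of Etfa to Etfb was 0.313, 0.280 and 0.268 in FF-10501-01 and 0.303, 0.312 and 0.302 in vehicle, and overlapped (exact permutation p = 0.4). Hadha and Hadhb start head to head on opposite strands of chromosome 5, with 85 bases between their GENCODE ends. The RefSeq start of Hadha lies farther from Hadhb than its GENCODE end. The RefSeq window of Hadhb is printed to show this shared region, with the 85 bases between the GENCODE ends in capitals (GRCm38.p6).
Hadhb, chr5:30155003-30155302, plus strand: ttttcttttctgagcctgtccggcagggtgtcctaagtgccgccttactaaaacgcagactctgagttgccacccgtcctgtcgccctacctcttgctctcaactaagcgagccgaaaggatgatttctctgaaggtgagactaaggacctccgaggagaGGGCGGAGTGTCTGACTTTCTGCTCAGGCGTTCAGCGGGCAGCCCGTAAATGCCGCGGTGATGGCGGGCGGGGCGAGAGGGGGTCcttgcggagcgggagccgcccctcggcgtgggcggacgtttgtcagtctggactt

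**Figure D2:**
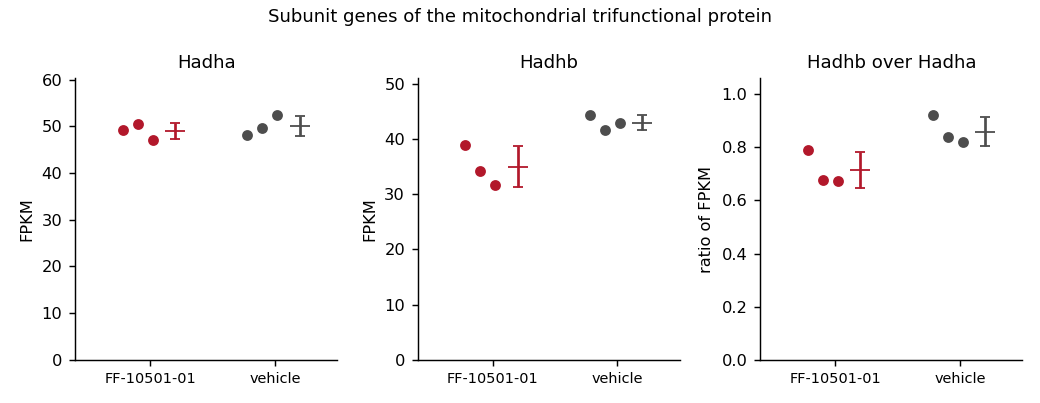
Levels of Hadha and Hadhb in FPKM and their ratio, for each FF-10501-01 and vehicle library (points), with group means and SD. Hadha overlaps between the groups, whereas Hadhb and the ratio are lower in every FF-10501-01 library, with ratios of 0.673 to 0.790 beside 0.818 to 0.921.

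Echs1, the short-chain hydratase, had 84.0, 86.4 and 76.8 FPKM in FF-10501-01 and 87.5, 88.2 and 80.4 FPKM in vehicle, and did not pass (limma adjusted p = 0.558). Acaa2, the mitochondrial thiolase, had a log2 fold change of −0.16 (limma adjusted p = 0.107). Its groups did not overlap.

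Ech1 and Decr1 handle the double bonds of unsaturated fatty acids. Ech1, a dienoyl-CoA isomerase at chr7:28825217-28832247, had 108, 109.8 and 118 FPKM in FF-10501-01, against 87.9, 100.4 and 99.4 FPKM in vehicle. It was the one gene of the 29 whose FF-10501-01 values all lay above the vehicle values. The means were 112 ± 5.12 and 95.9 ± 6.92 FPKM (SD, n = 3 each), and the log2 fold change was 0.22 (SE 0.060, limma adjusted p = 0.0437). Decr1, the dienoyl-CoA reductase, had a log2 fold change of −0.04 (limma adjusted p = 0.762).

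None of the 3 electron transfer genes passed (limma, 1 at an unadjusted p under 0.05, Etfa). Etfb and Etfa encode the subunits of the electron transfer flavoprotein, and Etfdh the enzyme that accepts its electrons. Etfb was the most abundant of the 29 genes, with 187, 209.7 and 203 FPKM in FF-10501-01 and 203, 205 and 204 FPKM in vehicle. FF-10501-01 replicate 1 was low and the other values lay close together (log2 fold change −0.03, limma adjusted p = 0.686). Etfa had 58.4, 58.7 and 54.5 FPKM in FF-10501-01 and 61.5, 63.9 and 61.7 FPKM in vehicle. Its groups did not overlap, yet it did not pass (log2 fold change −0.12, limma adjusted p = 0.0977). Etfdh had a log2 fold change of −0.05 (limma adjusted p = 0.515).

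**Figure D3:**
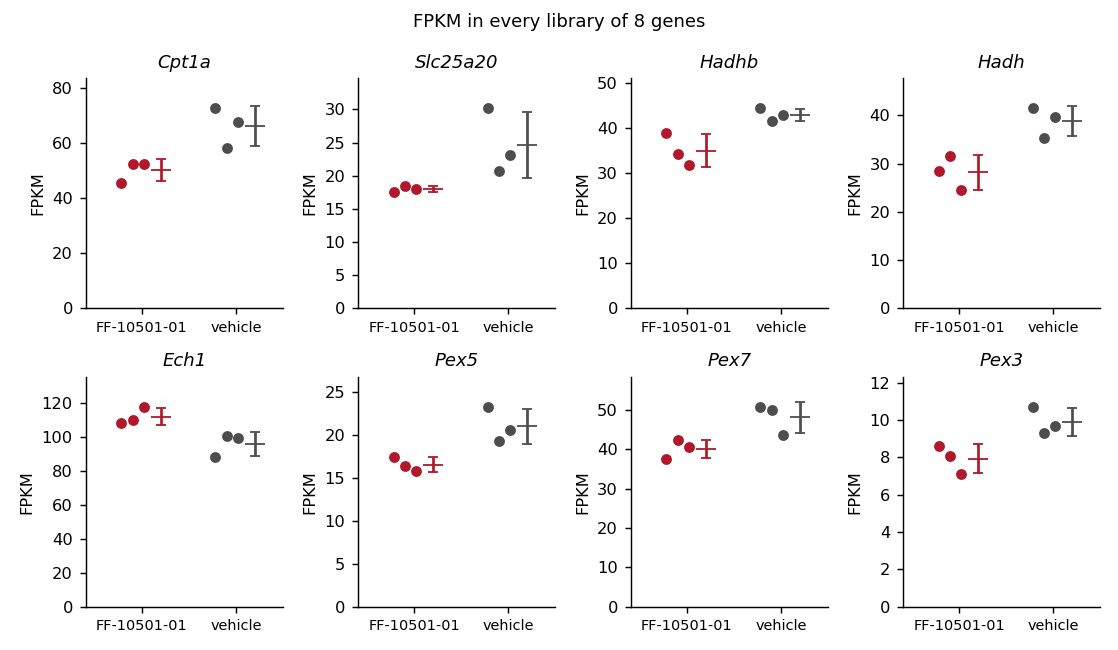
FPKM of the 7 genes that passed and of Pex3, which lay at the threshold, in each FF-10501-01 and vehicle library, with group means and SD. In each panel the groups do not overlap, and Ech1 is the gene with the higher FF-10501-01 values.

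In the peroxisome 2 of 12 tested genes were lower and none was higher, beside 7.46% and 7.43% of all entries tested. At an unadjusted p under 0.05 (limma) 0 were higher as well, beside 1666 of all 11004 entries. With so few genes, a count of 0 higher does not set them apart. Both lower genes were the receptors of matrix import. Pex5, at chr6:124396816-124415067, binds the carboxy-terminal targeting signal of most matrix enzymes. It had 17.5, 16.4 and 15.8 FPKM in FF-10501-01, against 23.3, 19.3 and 20.5 FPKM in vehicle. The groups did not overlap, the means were 16.5 ± 0.860 and 21.0 ± 2.04 FPKM (SD, n = 3 each), and the log2 fold change was −0.33 (SE 0.0745, limma adjusted p = 0.0266).

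Pex7, at chr10:19853900-19907689, binds the second, amino-terminal signal, which a few enzymes such as thiolase carry. It had 37.5, 42.2 and 40.4 FPKM in FF-10501-01, against 50.8, 49.9 and 43.6 FPKM in vehicle. FF-10501-01 replicate 2 and vehicle replicate 3 lay close together without overlap. The log2 fold change was −0.26 (SE 0.0697, limma adjusted p = 0.0433). A gene model of unknown coding status, Gm48714, overlaps Pex7 on the same strand, so some reads could belong to either.

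Of the 3 membrane assembly genes, Pex3, the membrane anchor, lay at the threshold. It had 8.64, 8.06 and 7.10 FPKM in FF-10501-01, against 10.7, 9.31 and 9.68 FPKM in vehicle, with no overlap. The log2 fold change was −0.29 (SE 0.083, limma adjusted p = 0.05004, just above the limit), and it passed in 3 of 8 other settings and in 1 of 6 fits that left out a library. Pex3 overlaps Adat2 on the opposite strand by 249 bases, and although the library kit was strand-specific, whether the counting used strand is not given in the sources used here. Pex16 and Pex19, its partners in membrane assembly, had log2 fold changes of −0.12 and −0.05 (limma adjusted p = 0.207 and 0.552).

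The remaining import machinery did not pass. Pex13 and Pex14, which form the docking site for loaded receptors, had log2 fold changes of −0.07 and −0.03 (limma adjusted p = 0.366 and 0.736). Pex10, a ubiquitin ligase that marks receptors for recycling, and Pex6, an ATPase that extracts them, had 0.05 and 0.03 (limma adjusted p = 0.728 and 0.823). Pxmp3, the older name of the ligase Pex2, had 17.5, 18.2 and 18.3 FPKM in FF-10501-01 and 18.1, 18.1 and 20.9 FPKM in vehicle (log2 fold change −0.07, limma adjusted p = 0.466), and is in none of the counts.

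The peroxisomal transporter and β-oxidation enzymes did not pass either (limma, 1 of 3 at an unadjusted p under 0.05, Abcd3). Abcd3, which carries fatty acids into the peroxisome, had a log2 fold change of −0.12 with groups apart (limma adjusted p = 0.151). Hsd17b4, the multifunctional enzyme for branched chains, and Acaa1a, the peroxisomal thiolase, had −0.06 and 0.01 (limma adjusted p = 0.506 and 0.916). Ehhadh, the other multifunctional enzyme, was barely detected, listed at 0, 0 and 0.0189 FPKM in FF-10501-01 and at 0.0373, 0.0372 and 0.0299 FPKM in vehicle. Pex11a, which elongates peroxisomes before they divide, was also below the filter, with 0.595, 0.654 and 0.416 FPKM in FF-10501-01 and 0.465, 0.519 and 0.812 FPKM in vehicle.

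Mitochondrial and peroxisomal genes can be set side by side. The mitochondrial genes had a median log2 fold change of −0.10, with 15 of 17 values below 0, and the peroxisomal genes one of −0.06, with 9 of 12 below 0. Of all entries tested 53.4% were below 0. Summed over the mitochondrial genes the level was 851, 897 and 864 FPKM in FF-10501-01, against 925, 912 and 919 FPKM in vehicle. Summed over the peroxisomal genes it was 241, 246 and 234 FPKM in FF-10501-01, against 262, 261 and 258 FPKM in vehicle. Both sums were lower in every FF-10501-01 library, at 0.948 and 0.924 of the vehicle mean. The ratio of the sums was 3.52, 3.64 and 3.69 in FF-10501-01 and 3.53, 3.50 and 3.56 in vehicle, so that it overlapped between the groups. Some reads of Echs1, Acaa1a and Etfb could belong to the genes that overlap them, Paox, Myd88 and Gm45233 among them. Whether the 2 sets differ in their change was not tested.

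**Figure D4:**
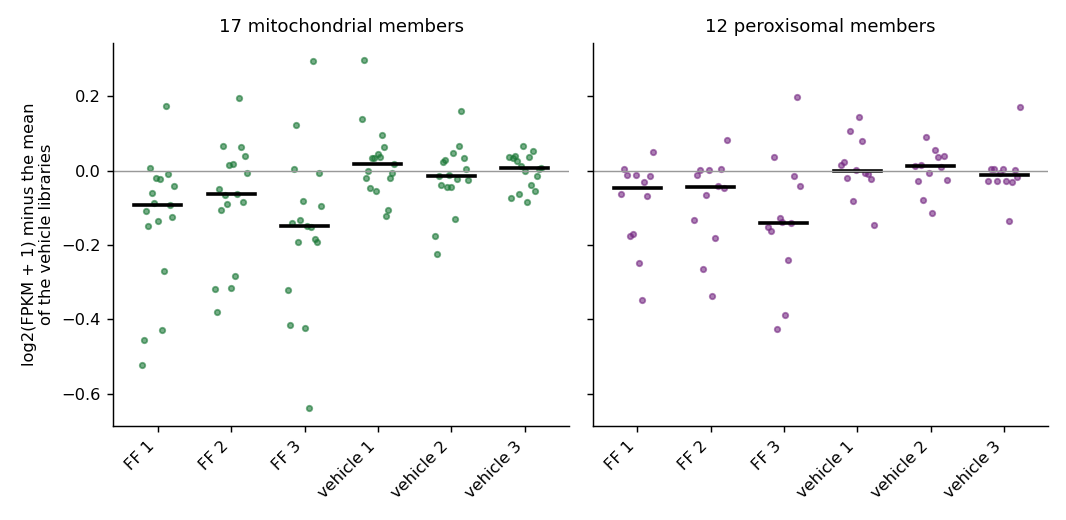
Deviation of each of the 17 mitochondrial and 12 tested peroxisomal genes (points) from its vehicle mean on log2(FPKM + 1), for each FF-10501-01 (FF) and vehicle library, with the median as a black line. The median of FF-10501-01 replicate 3 is lowest in both panels, at −0.15 and −0.14, and the vehicle medians lie between −0.01 and 0.02.

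Within FF-10501-01 the libraries were unequal. Replicate 3 had the lowest value of the group for 17 of the 29 genes, and replicate 2 the highest for 16. Such counts were not made over all entries, so they are not shown to be particular to these genes. By the median of ratios, replicate 3 also had the lowest size factor of the group (0.990) and replicate 2 the highest (1.001). Replicate 3 also had the highest neutrophil marker sum, 2484 FPKM, and the part of that difference was not tested. Among vehicle libraries replicate 1 was highest for 13 genes and lowest for 12.

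The genes differed widely in level, on the per-length FPKM scale. The mitochondrial genes had a median of 39.0 FPKM over the 6 libraries, with a range of 8.83 to 202 FPKM, and the tested peroxisomal genes a median of 17.9 FPKM, with a range of 5.88 to 44.1 FPKM. Etfb, Ech1, Echs1, Acadl, Etfa and Cpt1a were the most abundant, and Pex7 was the most abundant peroxisomal gene.

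**Figure D5:**
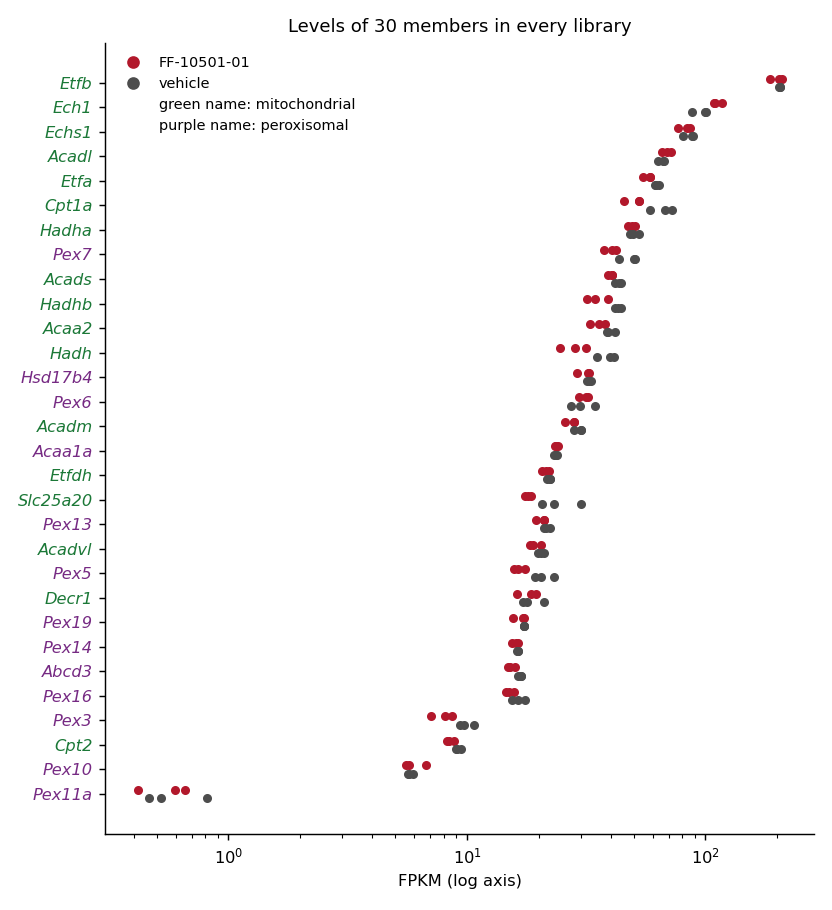
Level in FPKM (log axis) of 30 of the genes in every FF-10501-01 and vehicle library, ordered by mean. Ehhadh is left out because it is listed at 0 in 2 libraries, Etfb is highest at a mean of 202 FPKM, and Pex11a is the lowest shown.

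Further genes of the pathway were counted from 5 lists, in which 126 genes outside the 32 were named and 100 were tested. Of these 9 were higher and 11 lower, beside 7.43% and 7.46% of all entries tested. Their median log2 fold change was −0.01, equal to that of all entries to 2 decimals. In the remaining mitochondrial oxidation list 2 of 23 were higher and 3 lower. Pccb, a subunit of propionyl-CoA carboxylase, was lower, with 17.8 ± 0.752 FPKM in FF-10501-01 and 22.8 ± 1.16 FPKM in vehicle (log2 fold change −0.34, limma adjusted p = 0.0136), and Mcee, the epimerase of the next step, was higher, with 87.2 and 66.8 FPKM (0.38, limma adjusted p = 0.0188). Eci2 and Mlycd were lower (−0.20 and −0.27, limma adjusted p = 0.0389 and 0.0496) and Acad11 higher (0.30, limma adjusted p = 0.0471), whereas Hsd17b10, the most abundant that did not pass, was at −0.01 (limma adjusted p = 0.910).

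In the remaining peroxisome list 4 of 38 were higher and 1 lower. Prdx5, a peroxiredoxin that removes peroxides, had 716 ± 65.4 FPKM in FF-10501-01 and 505 ± 24.0 FPKM in vehicle (SD, n = 3 each), a log2 fold change of 0.50 (limma adjusted p = 0.0090). Crot, the peroxisomal carnitine octanoyltransferase, was higher (0.24, limma adjusted p = 0.0231), as were Fis1, a fission factor shared with mitochondria (0.17, limma adjusted p = 0.0265), and Phyh, which begins the oxidation of phytanic acid (0.21, limma adjusted p = 0.0308). Far2, which makes fatty alcohols, was lower (−0.39, limma adjusted p = 0.0167). Idh1, the most abundant that did not pass, was at −0.07 (limma adjusted p = 0.470).

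Among regulators 1 of 13 tested was higher and 1 lower. Ppard, the lipid-sensing receptor PPARδ, had 9.64 ± 0.745 FPKM in FF-10501-01 and 7.26 ± 0.994 FPKM in vehicle (SD, n = 3 each), a log2 fold change of 0.37 (limma adjusted p = 0.0373). Prkag1, a subunit of AMP-activated kinase, was lower, with 57.6 and 70.7 FPKM (−0.29, limma adjusted p = 0.0209), and Ncor1, a corepressor, was at 0.05 (limma adjusted p = 0.482). Ppara, Pparg and Ppargc1a were below the filter, with Ppara at 0.0121 FPKM in FF-10501-01 and 0.0176 FPKM in vehicle.

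Of 12 tested PPAR target genes 4 were lower (33.3%) and none higher, beside 7.46% and 7.43% of all entries tested. Their median log2 fold change was −0.15 (limma, 1 higher at an unadjusted p under 0.05, Creb3l3). Cpt1a, Slc25a20, Acadvl, Hadha and Acaa2 of this list are also among the 29 genes, so it is no separate set. Cpt1a and Slc25a20, already counted above, were among the 4 lower. The others were Angptl4, a lipase inhibitor, with 8.53 ± 0.634 FPKM in FF-10501-01 and 11.95 ± 0.934 FPKM in vehicle (−0.44, limma adjusted p = 0.0142), and Acot1, a cytosolic thioesterase with close paralogs that could share its reads (−0.47, limma adjusted p = 0.0476). Ucp2, merged with Dnajb13, was the most abundant that did not pass (−0.09, limma adjusted p = 0.241). Among 21 tested genes of fatty acid uptake, activation and storage 2 were higher and 4 lower. Slc27a1, a fatty acid transporter, and Acsl1, which activates long chains, were lower (−0.42 and −0.29, limma adjusted p = 0.0170 and 0.0214), as were Acss1 and Acsl3, merged with Utp14b (−0.58 and −0.37, limma adjusted p = 0.0230 and 0.0254). Abhd5, a coactivator of lipolysis, and Dgat1, which makes triglyceride, were higher (0.35 and 0.36, limma adjusted p = 0.0211 and 0.0225). Dbi, the acyl-CoA binding protein and the most abundant that did not pass, was at −0.13 (limma adjusted p = 0.0667). Mlycd, Phyh, Acss1 and Acsl3 were named after their values were seen.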

How the data were processed

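RNA-Seq of sorted GFP+ MLL-AF9 cells (3 FF-10501-01 and 3 vehicle libraries) was analysed from the table of FPKM that the authors deposited. Per the study's methods and the submitters' processing notes, the authors used cutadapt 1.8.1 for trimming, TopHat2 2.1.1 for alignment (GRCm38) and Cufflinks 2.2.1 for FPKM. Cuffdiff, their test, needs reads. The table holds 26384 entries, 394 of them merged genes, and no read totals, so no counting interval was computed. FPKM divides a gene's fragments by transcript length and library size, so levels are per length.

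Values were tested as log2(FPKM + 1) with limma 3.58.1 in R 4.3.3 (trend in eBayes, two-sided, Benjamini-Hochberg) in 11004 entries, those whose FPKM averaged 1 or more. Fold changes are FF-10501-01 over vehicle on that scale, which understates changes of low genes. Column names carry a number that does not match the sample titles, so replicate numbers follow the column order and name no particular mouse. Replicates are described as biological by the study. Each p-value sets the difference between the groups against the spread between libraries, moderated over all entries tested. As both groups carried the same leukemia, that spread is between recipient mice and not between independent leukemias.

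The genes and lists were chosen with earlier results of these data known. Values per library are given for genes that passed, the 6 most abundant, and those whose call a left-out library changed. In other lists up to 4 genes with the smallest p that passed and the most abundant that did not are named. Several entries per symbol were resolved by the highest mean. Positions are from GENCODE and promoter windows from RefSeq (GRCm38.p6). Other settings tried were 3 scalings (TPM, median of ratios, quantile), a pseudocount of 0.1, a mean FPKM filter of 5 or none, eBayes with no trend, a replicate block and leaving out single libraries. Protein sequences were not analysed here. Python 3.11.15, pandas 2.3.3 and matplotlib 3.10.9 were used.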

Additional observations from a re-analysis of the deposited data

How the results depend on the processing

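Of the 7 genes that passed, all did so with a pseudocount of 0.1 and a filter at a mean FPKM of 5, and 6 did so under quantile, median-of-ratios and TPM scaling. With no filter 581 entries were called, with 0 of the genes higher and 0 lower (limma, 1 and 11 at an unadjusted p under 0.05), and 7 rather than 20 further pathway genes passed. The main fit also had 1 and 11 at that unadjusted p (limma), beside 1666 higher and 1943 lower of all 11004 entries. Without a trend in eBayes 0 were higher and 3 lower. Leaving out 1 library gave 266 to 1748 entries called, 0 to 1 genes higher, 0 to 6 lower and 2 to 24 further pathway genes. The medians stayed below 0 throughout, at −0.11 to −0.08 for mitochondrial and −0.09 to −0.03 for peroxisomal genes. Among genes that did not pass, the sign turned when 1 library was left out for Etfb (−0.066 to 0.017, positive without FF-10501-01 replicate 1), Decr1 (−0.097 to 0.037, positive without FF-10501-01 replicate 3 or vehicle replicate 2), Acaa1a (−0.0054 to 0.018, negative without FF-10501-01 replicate 3 or vehicle replicate 1), Pex10 (−0.031 to 0.091, negative without FF-10501-01 replicate 3), Pex6 (−0.044 to 0.12, negative without vehicle replicate 1) and Hadha (−0.057 to 0.0034, positive without vehicle replicate 3). The cause was not tested. The deviations of same-numbered libraries had correlations of −0.011, −0.074 and −0.036, within the −0.113 to 0.133 of the other pairs. With 3 libraries in each group this cannot settle whether the numbers pair them. With the number as a replicate block 1252 entries passed, 1 gene was higher and 4 were lower: Hadhb, Hadh and Pex5 kept their calls, Cpt1a, Slc25a20 and Pex7 lost theirs (limma adjusted p = 0.0564, 0.0681 and 0.0642) and Pex3 passed (limma adjusted p = 0.0495), and 16 further pathway genes passed. The medians stayed at −0.10 for mitochondrial and −0.06 for peroxisomal genes.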
